A study of Mus musculus with 16 samples.

Results

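Imprinted genes are transcribed mainly from the allele of 1 parent, because a methylation mark laid down in egg or sperm is kept on that parent's chromosome in the cells of the offspring. Many of them act in fetal growth, and several, such as Mest and Peg10, are known for high activity in embryo and placenta and low activity in most adult tissues. This account follows 10 of them, Mest, Peg10, Sgce, Peg3, Plagl1, Impact, Ndn, Cdkn1c, Grb10 and Igf2r, in cloned mouse CD8 T cells. They were chosen by gene symbol in the platform annotation, and each had 1 probe set, so that 10 of 19938 measured genes are described. The set was put forward with results of these data in view, led by the response of Mest to cyclosporine A in the unconventional clone. The clone levels of Mest, Peg10 and Sgce and the drug response of Mest are therefore given as description, with no test.

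Affymetrix whole-transcript arrays were hybridised with RNA of a pair of CD8 T cell clones, 4 arrays in each of 4 groups. The conventional clone is cyclosporine-sensitive and the unconventional clone cyclosporine-resistant, per the labels, and each type is represented by 1 clone. Cells of all 4 groups had been grown with a cytokine mixture and were activated by immobilized antibody to CD3, clone 145-2c11, without recombinant cytokines; 2 of the groups, 1 per clone, received cyclosporine A at 1 ug per ml as well. The drug blocks calcineurin, the phosphatase that sends NFAT transcription factors into the nucleus. Unstimulated cells were not analysed here, and no label says that the 4 replicates were grown apart, so each p-value reflects array-to-array spread that may be technical only. The arrays measured total RNA, and the parental alleles are not told apart.

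Values are log2 expression values, and a change is a difference of log2 values with its standard error (SE) from a limma fit over all genes. A gene was called at a Benjamini-Hochberg adjusted p under 0.05. The scale of background was taken from 1194 olfactory and vomeronasal receptor genes, whose group means had a 95th percentile of 4.51. A gene with all 4 group means at or below that level is called near background. RMA, the summary method the processing notes name, compresses differences at that level, so folds measured against it tend to understate the change in RNA. All 8 measured genes of the CD8 T cell list, including Cd8a and Cd3e, lay above background in all 4 groups, and Cd4 lay below it in all 4. Foxp3, the other gene of the CD4 T cell list, had group means from 4.83 to 4.91, just above the background level. Arrays of 1 group correlated at 0.995 to 0.998 over probe sets.

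RefSeq sequences on GRCm38.p6 are shown for the starts of Mest, Igf2r and the Peg10 neighbours Casd1 and Pon3. These genes carry differences between the clones described below. Sequences at the starts of Peg3, Plagl1, Ndn, Grb10, Copg2, Herc3 and Airn were also read and are not printed. No start of Impact, Peg10, Sgce or Cdkn1c was read here, although Impact, Peg10 and Sgce also differed between the clones. For Peg10, Sgce and Cdkn1c the promoter sequences used had no entry. Each line is the 250 bases before a transcript start, 5′ to 3′ on the gene's own strand. Capitals mark the letters TGCCGC on either strand (GCGGCA where they lie on the other strand), the hexamer bound by the zinc finger protein ZFP57 when its CpG is methylated. The 2 Mest windows belong to an upstream and a downstream start, at chr6:30733256-30733505 and chr6:30737800-30738049, both on the plus strand; a further listed start nearly coincides with the downstream one. The Igf2r window is chr17:12769707-12769956 on the minus strand, the Casd1 window chr6:4600661-4600910 on the plus strand and the Pon3 window chr6:5256234-5256483 on the minus strand.
Mest upstream start: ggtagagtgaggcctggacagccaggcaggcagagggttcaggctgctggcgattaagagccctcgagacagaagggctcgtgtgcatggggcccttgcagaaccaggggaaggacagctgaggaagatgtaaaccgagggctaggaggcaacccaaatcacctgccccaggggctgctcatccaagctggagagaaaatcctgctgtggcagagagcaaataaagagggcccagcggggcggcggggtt
Mest downstream start: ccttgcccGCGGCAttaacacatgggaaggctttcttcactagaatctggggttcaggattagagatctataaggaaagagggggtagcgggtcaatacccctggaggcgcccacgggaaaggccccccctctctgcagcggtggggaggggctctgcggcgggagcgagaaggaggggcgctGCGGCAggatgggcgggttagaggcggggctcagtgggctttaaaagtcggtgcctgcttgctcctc
Igf2r: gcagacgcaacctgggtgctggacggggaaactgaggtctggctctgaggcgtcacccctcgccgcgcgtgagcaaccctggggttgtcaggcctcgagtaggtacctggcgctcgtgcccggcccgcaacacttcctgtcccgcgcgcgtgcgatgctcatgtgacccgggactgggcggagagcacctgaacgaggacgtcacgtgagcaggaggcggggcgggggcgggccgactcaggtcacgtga
Casd1: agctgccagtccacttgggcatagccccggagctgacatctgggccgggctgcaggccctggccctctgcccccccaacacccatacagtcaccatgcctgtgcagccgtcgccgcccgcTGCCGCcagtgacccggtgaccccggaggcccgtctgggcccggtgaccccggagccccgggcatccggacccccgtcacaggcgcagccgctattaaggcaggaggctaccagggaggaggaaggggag
Pon3: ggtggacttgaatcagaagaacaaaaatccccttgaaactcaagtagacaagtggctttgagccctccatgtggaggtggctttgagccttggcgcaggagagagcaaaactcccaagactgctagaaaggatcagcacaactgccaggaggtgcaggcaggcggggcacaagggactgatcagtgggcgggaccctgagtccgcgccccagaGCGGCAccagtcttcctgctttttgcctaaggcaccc
The downstream Mest window held 14 CpG and 2 copies of the hexamer, while the upstream one held 7 CpG and 0 copies. The Igf2r window held 27 CpG and 0 copies. This Casd1 window held 17 CpG and 1 copy, while a second listed Casd1 start, at chr6:4623661-4623910 and not printed, held 4 CpG and 0 copies. The Pon3 window held 6 CpG and 1 copy. Over 32851 windows of the same length the median was 6 CpG, and 8.7% held the hexamer on either strand. The letters GGAAAA, the core of many NFAT sites, were absent from all 5 windows on both strands and present in 20.4% of all windows. Among the windows read but not printed, that of Peg3 and that of 1 Grb10 start held 1 copy each, and the others held 0. The 5 windows were picked for display, so nothing is read from this share.

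A mature microRNA pair is encoded within Mest as Mir335, and its sequences are shown for comparison with the Mest signal below. Capitals mark the seed, bases 2 to 8. The 5p arm lies at chr6:30741314-30741336 and the 3p arm at chr6:30741354-30741375, both on the plus strand of GRCm38.p6.
mmu-miR-335-5p: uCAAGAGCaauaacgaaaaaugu
mmu-miR-335-3p: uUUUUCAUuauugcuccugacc
The arms differ in their seeds. Whole-transcript arrays were not built to count mature arms, and the Mir335 probe set is read here only as a signal within the Mest locus.

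The paternally expressed genes of the set are described first, and Mest, Peg10 and Sgce among them were chosen with their values known. No link between the size of a contrast and the parental allele was tested. Mest, which encodes a hydrolase-fold protein, was near background in the conventional clone, clearly measured in the activated unconventional clone and higher still there with cyclosporine A. Its values in the conventional clone were 3.94, 4.19, 4.09 and 4.16 with anti-CD3 alone and 4.28, 4.21, 4.23 and 3.98 with the drug. In the unconventional clone they were 7.29, 6.92, 6.51 and 6.79 with anti-CD3 alone and 10.12, 10.17, 10.06 and 10.51 with the drug. The arrays of the conventional groups overlapped each other, and each unconventional group stood apart from every other group. With cyclosporine A the unconventional clone stood 3.34 higher (SE 0.13), a 10.1-fold difference. The conventional clone moved by 0.08 (SE 0.13; limma, adjusted p = 0.7267), with a 95% interval from -0.19 to 0.35. The drug effect of the unconventional clone exceeded that of the conventional clone by 3.26 (SE 0.18). Between the clones, Mest was 2.78 higher in the unconventional clone with anti-CD3 alone and 6.04 higher with the drug (SE 0.13 each). These are 6.87-fold and 65.8-fold differences, measured against a near-background level.

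**Figure D1:**
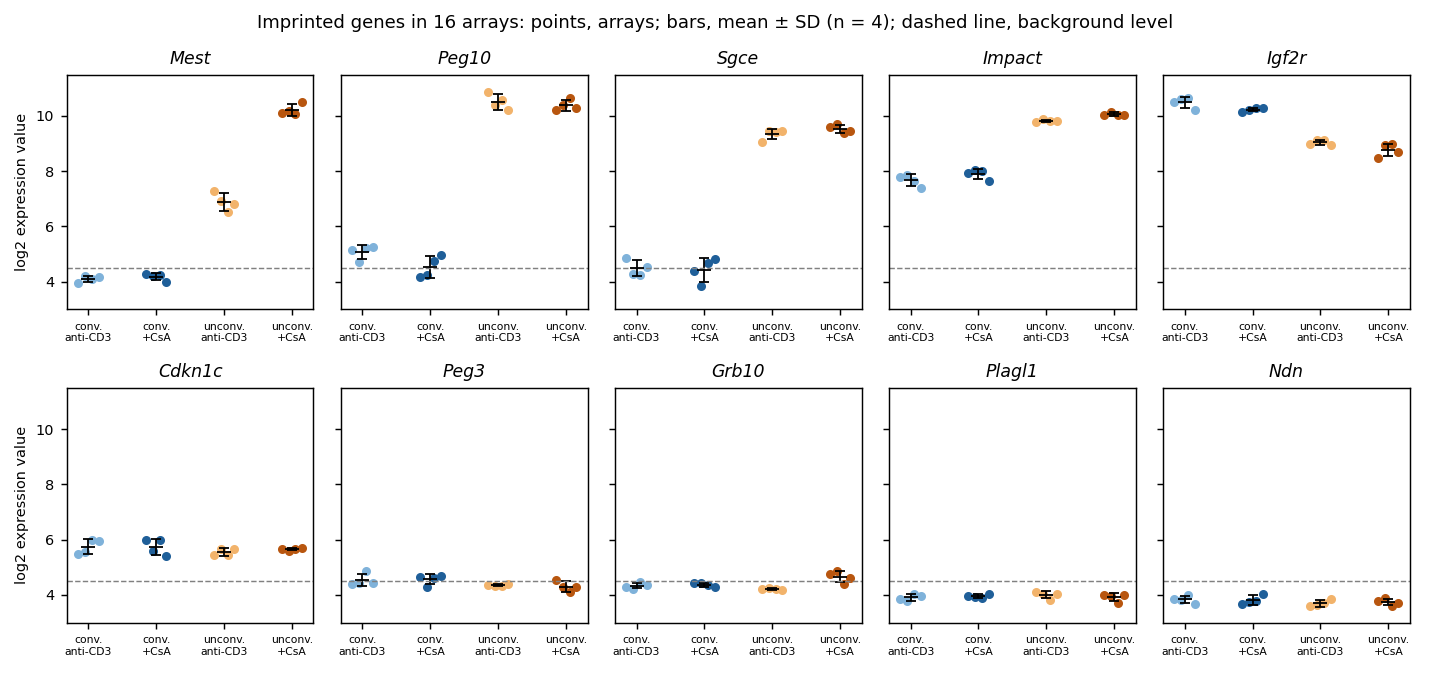
Log2 expression value of each of the 10 imprinted genes on 16 arrays, with 1 panel per gene; conv. is the conventional and unconv. the unconventional clone, CsA is cyclosporine A, points are arrays, bars are mean ± SD (n = 4), and the dashed line is the background level of 4.51. Mest steps from below the background level in the conventional clone to 6.88 and then 10.21 in the unconventional clone, whereas Peg10, Sgce, Impact and Igf2r separate the clones at both drug conditions.

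Peg10, a gene derived from a retrotransposon, separated the clones at both drug conditions. Its values in the conventional clone were 5.14, 4.69, 5.22 and 5.26 with anti-CD3 alone and 4.18, 4.24, 4.76 and 4.97 with the drug. Those of the unconventional clone were 10.86, 10.38, 10.57 and 10.22 with anti-CD3 alone and 10.20, 10.41, 10.64 and 10.27 with the drug. Every array of the unconventional clone lay above every array of the conventional clone, while within each clone the drug groups overlapped. The unconventional clone was 5.43 higher with anti-CD3 alone, a 43.1-fold difference, and 5.84 higher with cyclosporine A, a 57.4-fold difference (SE 0.17 each). Peg10 fell by 0.54 with the drug in the conventional clone (SE 0.17; limma, adjusted p = 0.0190), from 5.08 to 4.54, a level just above background. This call was lost without replicate 3 (-0.49) or 4 (-0.48) of the anti-CD3 arrays, and without replicate 1 (-0.42) or 2 (-0.44) of the cyclosporine A arrays. The drug effect in the unconventional clone was -0.13 (SE 0.17; limma, adjusted p = 0.7013), with an interval from -0.49 to 0.23. The difference of the drug effects was 0.41 and was not called (SE 0.24; limma, adjusted p = 0.3257).

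Sgce lies beside Peg10 and is transcribed away from it; it encodes epsilon-sarcoglycan, a membrane glycoprotein. Its values in the conventional clone were 4.87, 4.28, 4.24 and 4.52 with anti-CD3 alone and 4.38, 3.85, 4.68 and 4.81 with the drug. The unconventional clone gave 9.07, 9.47, 9.43 and 9.44 with anti-CD3 alone and 9.59, 9.69, 9.38 and 9.45 with the drug. The conventional groups had means of 4.48 and 4.43, at or below background, and the unconventional groups did not overlap them. The clones differed by 4.87 with anti-CD3 alone (29.3-fold) and by 5.10 with cyclosporine A (34.2-fold), each with an SE of 0.17. The drug effect was -0.05 in the conventional clone (limma, adjusted p = 0.8732; interval -0.40 to 0.30). It was 0.17 in the unconventional clone (limma, adjusted p = 0.5686; interval -0.18 to 0.53).

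Impact encodes an inhibitor of the amino acid sensor GCN2. Its values in the conventional clone were 7.80, 7.86, 7.66 and 7.38 with anti-CD3 alone and 7.95, 8.06, 7.99 and 7.65 with the drug. On the unconventional arrays they were 9.77, 9.89, 9.81 and 9.81 with anti-CD3 alone and 10.04, 10.16, 10.03 and 10.05 with the drug. The clones did not overlap at either condition, and Impact was well above background in all 4 groups. It was 2.15 higher in the unconventional clone with anti-CD3 alone (SE 0.10; limma, adjusted p = 5.2e-13), a 4.42-fold difference, and 2.16 higher with cyclosporine A (SE 0.10; limma, adjusted p = 3.0e-13). The drug effects were 0.24 in the conventional clone (SE 0.10; limma, adjusted p = 0.0743) and 0.25 in the unconventional clone (SE 0.10; limma, adjusted p = 0.0730), neither of them called. The arrays with and without the drug overlapped in the conventional clone and did not in the unconventional clone. The effects were called under several alternatives listed in the closing section, and their difference was 0.01 (interval -0.28 to 0.30).

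The other paternally expressed genes carried little signal. Ndn, which encodes the growth suppressor necdin, ranged from 3.59 to 4.05 over the 16 arrays, and Plagl1, a zinc finger transcription factor, from 3.71 to 4.11. Both were near background in all 4 groups. Peg3, another zinc finger gene, had group means from 4.30 to 4.56 and exceeded the background level only in the conventional clone, at 4.54 and 4.56. Its values with the drug were 4.67, 4.29, 4.60 and 4.69 in the conventional clone and 4.54, 4.28, 4.09 and 4.30 in the unconventional clone, which overlapped. That difference was -0.26 (SE 0.11; limma, adjusted p = 0.0681), and 4 of 18 alternative settings called it. Neither Plagl1, Ndn nor Peg3 was called in any of the 5 comparisons; at these levels a change in RNA may not be detectable.

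Among the maternally expressed genes, Igf2r separated the clones in the opposite direction. Igf2r encodes the receptor that carries IGF2 and mannose 6-phosphate proteins to the lysosome. Its values in the conventional clone were 10.49, 10.63, 10.67 and 10.23 with anti-CD3 alone and 10.15, 10.23, 10.28 and 10.27 with the drug. For the unconventional clone they were 9.00, 9.12, 9.11 and 8.93 with anti-CD3 alone and 8.48, 8.94, 8.97 and 8.69 with the drug. Every array of the unconventional clone lay below every array of the conventional clone. Igf2r was lower there by 1.46 at both conditions, a change of -1.46 with an SE of 0.11 (limma, adjusted p = 5.6e-10 with anti-CD3 alone and 3.7e-10 with the drug). The fold was 2.75 with anti-CD3 alone. The drug effect was -0.27 in both clones (SE 0.11; limma, adjusted p = 0.0587 in the conventional and 0.0670 in the unconventional clone). Neither was called, and the arrays with and without the drug overlapped in both clones.

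Grb10, an adaptor that dampens insulin and IGF1 receptor signalling, was above background only in the unconventional clone with cyclosporine A. Its values in the unconventional clone were 4.23, 4.26, 4.22 and 4.19 with anti-CD3 alone and 4.77, 4.86, 4.41 and 4.62 with the drug. In the conventional clone they were 4.28, 4.23, 4.45 and 4.36 with anti-CD3 alone and 4.43, 4.42, 4.35 and 4.28 with the drug. Grb10 rose by 0.44 in the unconventional clone, with no overlap of arrays (SE 0.08; limma, adjusted p = 4.5e-04). In the conventional clone the effect was 0.04 (SE 0.08; limma, adjusted p = 0.7864). The effects differed by 0.40 (SE 0.12; limma, adjusted p = 0.0248), but this call was lost when arrays were centred on their medians (0.35, adjusted p = 0.0779). It was also lost without replicate 3 of the conventional anti-CD3 arrays, replicate 4 of the conventional cyclosporine A arrays, or replicate 1 or 2 of the unconventional cyclosporine A arrays, where it lay between 0.33 and 0.37. With the drug Grb10 was 0.30 higher in the unconventional clone (limma, adjusted p = 0.0070), although single arrays overlapped. Cdkn1c encodes the cyclin-dependent kinase inhibitor p57. It was above background in all 4 groups and flat, with group means from 5.56 to 5.75, and it was not called in any comparison. Its drug effects were -0.01 (interval -0.28 to 0.26) in the conventional and 0.09 (interval -0.17 to 0.36) in the unconventional clone.

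**Figure D2:**
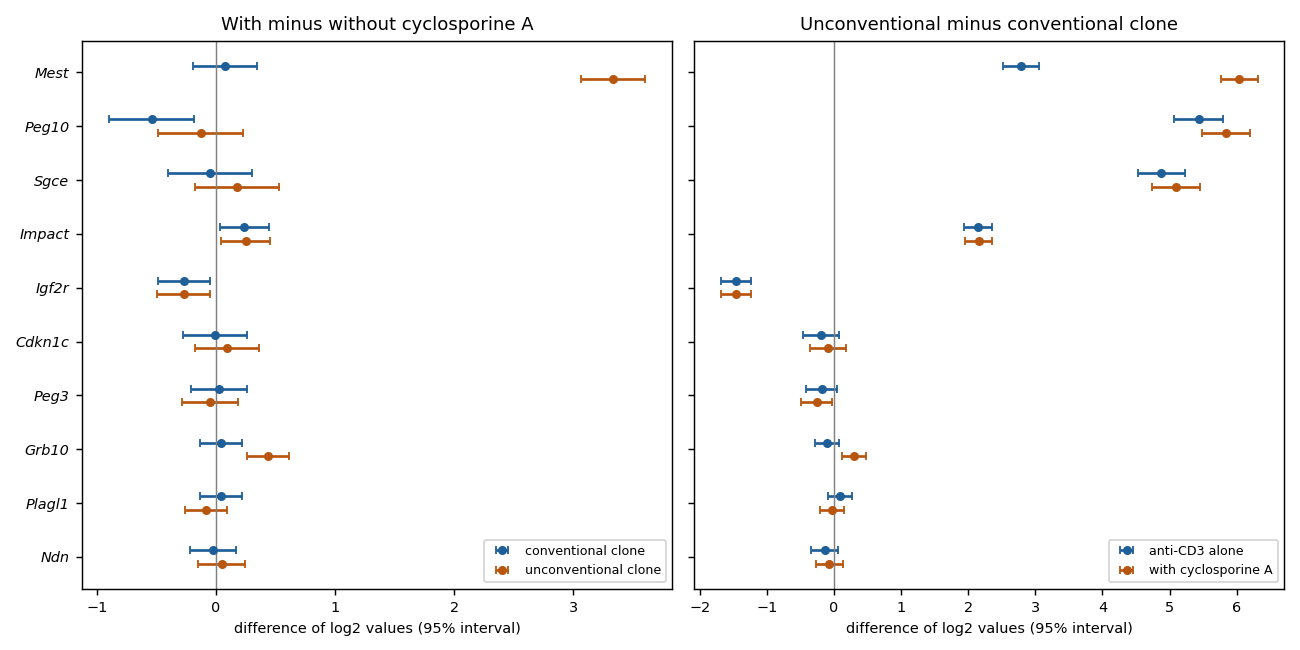
Differences of log2 values for the 10 genes: on the left cyclosporine A minus none in each clone, on the right the unconventional minus the conventional clone at each condition. Points are differences and bars their 95% intervals from the limma fit. The drug effect of Mest in the unconventional clone, 3.34, stands apart on the left, and on the right Mest, Peg10, Sgce and Impact lie above 0 and Igf2r below it at both conditions.

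Counted together, 5 of the 10 genes were called between the clones with anti-CD3 alone, 4 higher and 1 lower in the unconventional clone. In the same comparison 42.0% of all genes were called, 20.3% higher and 21.7% lower. When the drug was present, 6 of 10 were called between the clones, 5 higher and 1 lower, against 44.2% of all genes, 21.3% higher and 23.0% lower. For cyclosporine A in the conventional clone, 1 of the 10 was called, lower, against 31.4% of all genes, 15.9% higher and 15.5% lower. In the unconventional clone 2 of 10 were called, both higher, against 24.9% of all genes, 12.6% higher and 12.3% lower. The effects differed between the clones for 2 of 10, both higher, against 16.3% of all genes, 8.51% higher and 7.78% lower. Mest is among the calls of all these comparisons but that of the drug in the conventional clone, and Peg10 and Sgce are among the clone calls. The drug response of Mest and the clone levels of the 3 genes were known when the set was chosen, so nothing is read from these shares. Without Mest, Grb10 alone was called for the drug in the unconventional clone and for the difference of effects. The median change over the 10 genes was 0.01 for the drug in the conventional and 0.07 in the unconventional clone, beside 0.02 over all genes in each. Under median centring of the arrays the share of higher calls over all genes went from 50.7% to 40.1% for the drug in the unconventional clone and from 48.3% to 58.8% between the clones with anti-CD3 alone.

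The genes around Peg10 were read in the order of the RefSeq table of GRCm38.p6. Sgce and Peg10 on chromosome 6 are followed on one side by Casd1, a sialic acid O-acetyltransferase gene, and on the other by Ppp1r9a and the paraoxonase genes. Casd1 was 1.99 higher in the unconventional clone with anti-CD3 alone (SE 0.07; limma, adjusted p = 1.3e-14), at 9.59 ± 0.04 (SD, n = 4) against 7.60 ± 0.10 (SD, n = 4). Pon3 was 2.96 higher (SE 0.09; limma, adjusted p = 1.1e-15), at 7.12 ± 0.09 (SD, n = 4) against a near-background 4.17 ± 0.03 (SD, n = 4). Between Peg10 and Pon3, Ppp1r9a and Pon1 were near background in all 4 groups, so no clone difference could be read there. Beyond Casd1, Col1a2 was 0.33 lower in the unconventional clone, Bet1 was not called, Gng11 was 0.88 lower and Tfpi2 was 1.76 lower. Of 15 measured neighbours, 7 were above background in a group, 2 were called higher and 4 lower, a share near the 20.3% and 21.7% of all genes. Pon2, next to Pon3, changed by -0.25 (SE 0.07, limma, adjusted p = 0.0101). With anti-CD3 alone Casd1, Sgce, Peg10 and Pon3 stood higher within a stretch whose outer measured genes were lower, not called or near background. The outer genes differed with cyclosporine A, where Bet1 was lower in the unconventional clone (-1.42; limma, adjusted p = 8.2e-10) and Pon2 higher (0.19; limma, adjusted p = 0.0448). Casd1 and Pon3 were higher there too, by 1.82 and 3.25. Peg10 and Sgce were chosen with their levels known, and a difference shared over the stretch was not tested.

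Around Mest the neighbours did not follow it. Copg2, a coat protein gene whose end overlaps that of Mest, stood at 9.84, 10.19, 9.88 and 10.24 as group means, in the order conventional and unconventional clone with the drug condition second in each. It rose by 0.34 in the conventional (SE 0.07; limma, adjusted p = 7.7e-04) and by 0.36 in the unconventional clone (SE 0.07; limma, adjusted p = 7.6e-04) with the drug. The clones differed by 0.04 with anti-CD3 alone (limma, adjusted p = 0.6967). Mir335, chosen for description after its values were seen, had group means of 5.02, 5.08, 4.62 and 4.88 in the same order. Its drug effect in the unconventional clone was 0.25 (SE 0.10; limma, adjusted p = 0.0783), where Mest differed by 3.34. With anti-CD3 alone Mir335 was 0.40 lower in the unconventional clone, a change of -0.40 (SE 0.10; limma, adjusted p = 0.0035), although single arrays overlapped. Of the 16 measured neighbours of Mest, 12 were above background in a group; the drug response in the unconventional clone was called upward for 3 and downward for 4, where 12.6% and 12.3% of all genes were called.

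**Figure D3:**
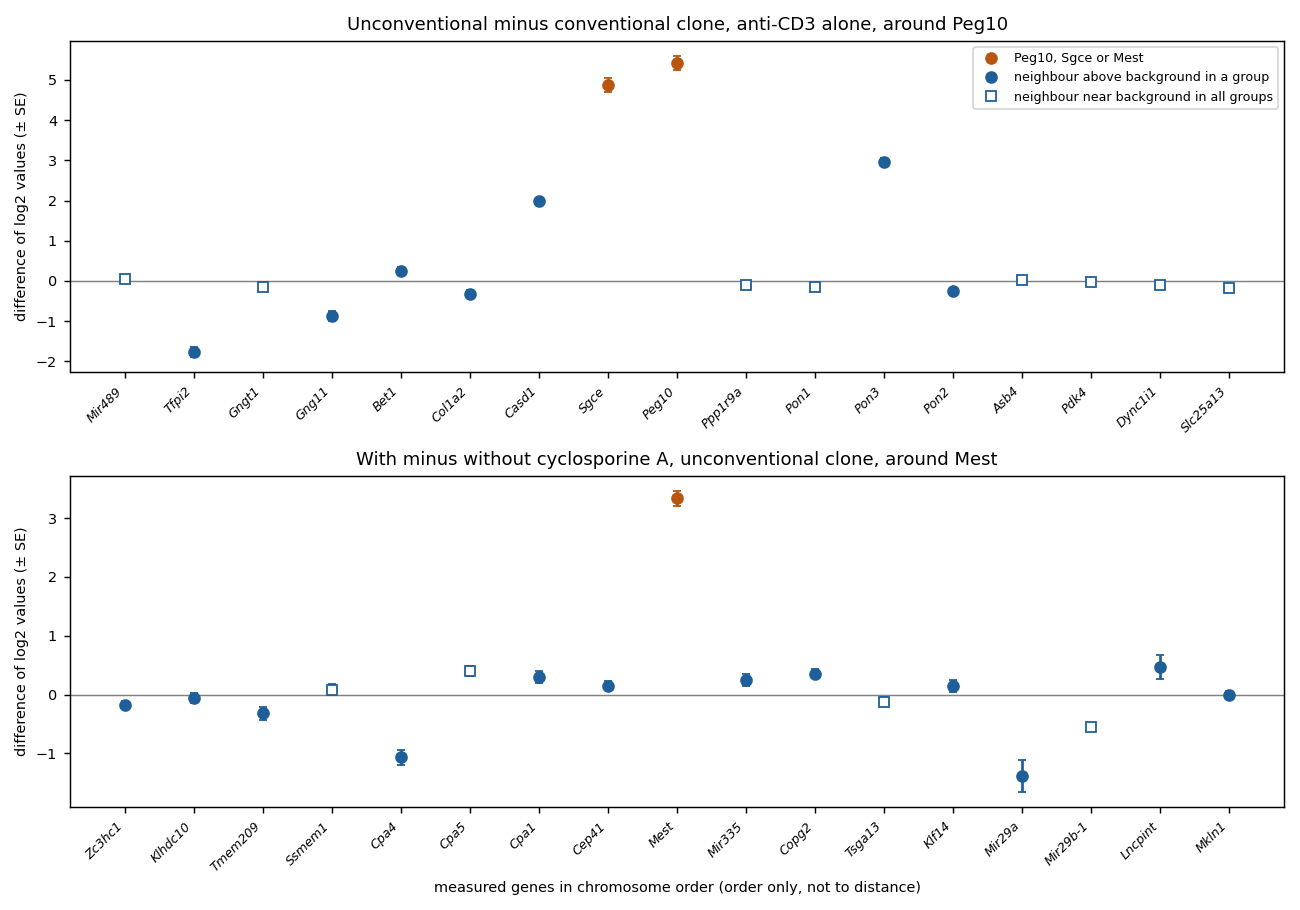
Difference of log2 values (± SE) against gene order: above, the unconventional minus the conventional clone with anti-CD3 alone around Peg10; below, cyclosporine A minus none in the unconventional clone around Mest. Open squares are genes near background in all groups. Casd1 (1.99) and Pon3 (2.96) are the neighbours of Sgce and Peg10 that lie well above 0, and Mest (3.34) has no neighbour of like size.

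Near the other members, the antisense transcript Airn, which starts within Igf2r, was also lower in the unconventional clone. Its clone difference was -0.54 with anti-CD3 alone (SE 0.17; limma, adjusted p = 0.0171) and -1.01 with the drug (SE 0.17; limma, adjusted p = 6.7e-05). With cyclosporine A Airn rose by 0.49 in the conventional clone (SE 0.17; limma, adjusted p = 0.0394), from 6.37 to 6.86, a call lost under median centring (0.48, adjusted p = 0.056) and cyclic loess (0.43, adjusted p = 0.097). How the probes of the array treat strand is not given in the sources used here, and Igf2r and Airn signals could share RNA. With anti-CD3 alone, 3 of the 16 measured neighbours of Igf2r were called higher and 4 lower in the unconventional clone. Around Impact 4 of 16 were higher and 4 lower, where 20.3% and 21.7% of all genes were called. Agpat4 near Igf2r differed by -1.17 and Ankrd29 near Impact by 1.70, so clone differences of such size were not confined to imprinted genes. Usp29 and Zim1 beside Peg3, and Ddc beside Grb10, were near background in all groups. Phlda2 and Slc22a18 beside Cdkn1c had group means from 4.75 to 5.00 and from 5.21 to 5.57, and only Slc22a18 with the drug differed between the clones (-0.37; limma, adjusted p = 0.011). Magel2, the neighbour of Ndn, was 0.29 lower in the unconventional clone with anti-CD3 alone, a change of -0.29 (limma, adjusted p = 0.0142). That call was lost under quantile normalization (-0.20) and cyclic loess (-0.17). Kcnq1ot1 was not analysed here.

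A list of 67 other imprinted genes, many of them known as imprinted only in placenta or brain, had 55 measured genes, 38 of them above background in a group. In the conventional clone 17 of the 55 were called with cyclosporine A, all 17 higher, with a median change of 0.14 beside 0.02. These are 30.9% of the list beside 31.4% of all genes, of which 15.9% were higher and 15.5% lower. The list was thus called about as often as genes in general, and only its direction was uneven. The unconventional clone had 9 that rose and 3 that fell, 21.8% of the list beside 24.9% of all genes, with a median of 0.04. Under the 3 other scalings the conventional clone had from 12 to 16 higher and 0 lower, and the unconventional clone from 6 to 8 higher and 4 to 5 lower. Herc3, a ubiquitin ligase family gene, rose by 2.77 in the conventional (SE 0.12; limma, adjusted p = 4.2e-13) and 2.45 in the unconventional clone (SE 0.12; limma, adjusted p = 6.3e-12). Osbpl5, which encodes a lipid transfer protein, rose by 0.84 and 1.01. Tfpi2, a protease inhibitor gene, rose by 1.04 in the conventional clone and changed by -0.02 in the unconventional clone, and these effects differed by -1.06 (limma, adjusted p = 1.9e-04). Between the clones with anti-CD3 alone 7 were higher and 16 lower in the unconventional clone, and with the drug 7 and 17. These are 41.8% and 43.6% of the list, beside 42.0% and 44.2% of all genes, so that the list was called about as often as genes in general. More of its calls were lower than higher, while all genes split into 20.3% higher and 21.7% lower with anti-CD3 alone. Under the 3 other scalings that comparison had from 7 to 8 higher and from 12 to 13 lower. Gatm, which encodes the first enzyme of creatine synthesis, was 4.08 higher with anti-CD3 alone (SE 0.15; limma, adjusted p = 1.5e-14) and was near background in the conventional clone. Igf2, the ligand cleared by the Igf2r product, was lower in the unconventional clone by a change of -1.51 (SE 0.08; limma, adjusted p = 5.0e-12), at 7.86 against 9.37.

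**Figure D4:**
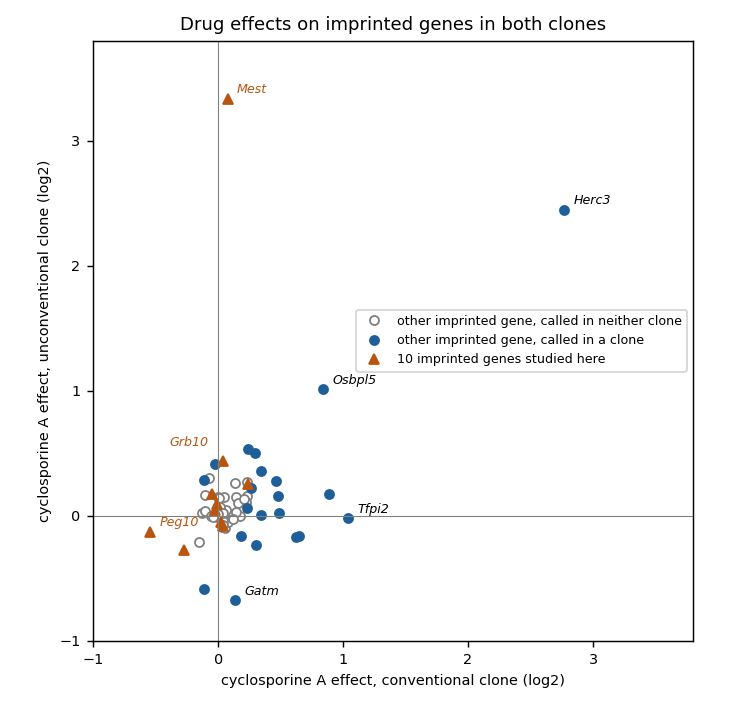
Cyclosporine A effect in the unconventional clone against that in the conventional clone, as differences of log2 values, for 55 other imprinted genes (circles) and the 10 genes described here (triangles). Mest lies on the vertical axis at 3.34, Herc3 is far from 0 in both clones, and Tfpi2 lies on the horizontal axis.

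Genes of the machinery that keeps imprints were read as a list of 19, all measured. With cyclosporine A 3 rose and 6 fell in the conventional clone, 47.4% of the list beside 31.4% of all genes. The unconventional clone had 2 that rose and 4 that fell, 31.6% beside 24.9%. Uhrf1, which brings the maintenance methyltransferase to replicated DNA, fell by 3.33 in the conventional (limma, adjusted p = 1.9e-15) and 0.75 in the unconventional clone, a change of -0.75 (limma, adjusted p = 6.2e-06). Tet2, which oxidises methylcytosine, changed by -1.26 and -0.69, and Arid4b, a chromatin protein, by 0.84 and 0.54, all called. Dnmt1, the maintenance methyltransferase itself, was 1.47 higher in the unconventional clone with anti-CD3 alone (limma, adjusted p = 8.5e-12) and was picked for mention after its values were seen. Zfp57 was near background in all 4 groups and not called.

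In the pathways the members act on, the drug effects differed from gene to gene. For the insulin-like growth factor genes, where Grb10 and Igf2r act, 14 of 15 were measured; 1 rose and 2 fell in the conventional clone, and 3 rose and 2 fell in the unconventional clone. These are 21.4% and 35.7% of the list, beside 31.4% and 24.9% of all genes. The ligand Igf1 changed by -2.92 in the conventional and -4.13 in the unconventional clone, and the adaptor Irs2 by -2.42 and -1.12, all called. The binding protein gene Igfbp4 rose by 0.62 in the unconventional clone (limma, adjusted p = 0.0069). Igf1r, the receptor, was near background in all groups. Of the cyclin-dependent kinase inhibitors, which include Cdkn1c, 6 of 7 were measured; 2 rose and 1 fell in the conventional clone, and 4 rose and 0 fell in the unconventional clone, where the all-gene shares were again 31.4% and 24.9%. Cdkn2b rose by 2.46 in the unconventional clone (limma, adjusted p = 3.1e-10) and had an effect of -0.00 in the conventional clone (SE 0.15; interval -0.32 to 0.32). Cdkn1b rose in both, by 0.98 and 0.62, and Cdkn2d rose by 0.81 in the conventional clone and had an effect of 0.10 in the unconventional clone.

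The GCN2 response, which Impact restrains, was represented by 12 of 13 genes, Impact among them. In the conventional clone 6 rose and 4 fell with the drug, 83.3% of the list beside 31.4% of all genes, and in the unconventional clone 1 rose and 4 fell, 41.7% beside 24.9%. The greatest drug effects were those of Trib3, Ddit3 and Atf5, targets of the stress factor ATF4. They rose by 1.58, 1.12 and 1.00 in the conventional clone. The 4 that fell there were Gcn1, Psat1, Sesn2 (10.35 to 9.86) and Phgdh (11.09 to 10.59), while Asns stood at 11.55 and 11.58. The list thus moved both ways in that clone, and whether the GCN2 response itself changed was not tested. In the unconventional clone Trib3, Ddit3 and Atf5 had effects of -0.15, -0.10 and 0.11, none called. The difference of effects was called for each of them, and for Trib3 it was -1.73 (limma, adjusted p = 1.6e-05). For the partners of necdin, 5 of 7 were measured; in each clone 1 rose and 1 fell, too few to set beside the all-gene shares. E2f1, the cell cycle factor that necdin binds, changed by -1.22 and -0.82, and Rb1, the retinoblastoma gene, by 0.75 and 0.35, the last of which was lost under median centring (0.29, adjusted p = 0.053).

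By likeness of the 4 centred group means, measured as the root mean square difference of log2 values, Mest was nearest to Padi2 (0.45), Nt5e (0.62), Itgb7 (0.65), Ahr (0.65) and Itgae (0.77). Itgae and Itgb7 encode the chains of the integrin CD103. Peg10 was nearest to Naalad2 (0.14), Alkbh3 (0.23), Spats2 (0.29), Pla2g4a (0.31) and Ifi30 (0.31). Sgce was nearest to Spint2 (0.14), 2210016F16Rik (0.17), Spats2 (0.18), Alkbh3 (0.21) and F13a1 (0.25). Sgce ranked 8 of 19937 genes in likeness to Peg10, at 0.38, and Peg10 ranked 17 in likeness to Sgce. With 4 group means, any gene that separates the clones alone by about as much as Peg10 or Sgce has a profile like theirs.

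Markers of other cells were read because Mest and Sgce are known in mesenchymal cells. Of 16 fibroblast genes 15 were measured, and from 9 to 10 of them were above background in a group. Their summed log2 level in the conventional clone ran from 82.6 to 84.7 without the drug and from 78.2 to 82.5 with it. The unconventional clone ran from 75.7 to 78.1 with anti-CD3 alone and from 79.4 to 81.5 with the drug. With the drug in the unconventional clone 4 of the 15 rose, Col6a3 by 3.31, and 1 fell, Lum, by a change of -2.14. Under each of the 3 other scalings 2 rose and 1 fell. Without the drug Lum stood at 9.87 in the conventional and 6.14 in the unconventional clone. Single genes such as Col6a3 and Lum therefore carry much of the differences between the sums. Pdgfra, Pdgfrb and Postn were near background in all 4 groups. The sum thus lay higher with the drug in the unconventional clone, as Mest did, and lower in the unconventional than in the conventional clone without the drug, unlike Mest, Peg10 and Sgce; its part in the drug response of Mest was not tested. Over the same step the summed CD8 T cell list went from between 86.1 and 86.6 to between 84.8 and 85.4, while its 8 measured genes moved both ways. Of these 3 rose (Cd3d by 0.40, Cd3g by 0.54 and Cd3e), 3 fell, among them Cd8a from 10.31 to 8.56, and Cd8b1 was not called (10.24 and 10.26). In the B cell list 1 to 2 of 6 measured genes and in the myeloid list 3 to 4 of 10 were above background in a group, and in the erythroid list at most 1 of 2. Cd68 of the myeloid list had means of 7.3 and 8.1 in the conventional clone without and with the drug. In the unconventional clone they were 8.7 and 9.1, and any part in the Mest levels was not tested. The other myeloid genes had group means up to 5.01 (Marco). In bulk RNA fewer cells of a kind and less RNA per cell cannot be told apart.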

How the data were processed

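Per the labels' protocols, 16 mouse arrays in 4 groups of 4 were analysed. The log2 values per probe set are those the authors deposited; the submitters' processing notes name RMA, GCOS and Partek 6.2, with no role or order. Their range, 2.08 to 14.55, is the basis for reading them as log2. For the genome build and annotation version, nothing is given in the sources used here. RMA makes arrays alike in distribution and compresses differences near background; array medians ran from 5.16 to 5.35. The number of arrays limits the precision.

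Of 28853 probe sets 21789 had 1 symbol, 1621 several and 5443 none here. Entrez IDs of the GRCm38.p6 gene table matched 99.6% of those with 1 symbol, and 0 symbols changed. The probe set with the highest mean per gene was kept, which gave 19938 genes with no filter. limma 3.58.1 (R 4.3.3) estimated 1 mean per group from the 16 arrays together, with 12 residual degrees of freedom. The 5 comparisons were the drug effect per clone, its difference between clones, and the clones at each condition, two-sided, with Benjamini-Hochberg adjustment over all genes. The fit was tested on simulated data. RefSeq promoter, microRNA and gene tables of GRCm38.p6 gave sequences and gene order.

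The 10 genes, the other lists and the contrasts were chosen with earlier results of these data known. Named beside the 10 were up to 5 other imprinted genes per comparison with the greatest called change of at least 2-fold, listed imprinted neighbours of members, up to 3 genes per pathway list with the greatest drug effect in either clone, and the 5 genes of most similar profile to Mest, Peg10 and Sgce. Alternatives were other scalings, probe set rules, a background filter, other variance models, a replicate block and leaving out each array.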

Additional observations from a re-analysis of the deposited data

Results flagged for a closer look

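Among 41 named genes in 4 groups of 4 arrays, 9 of 164 groups had 1 array far from the other 3 by Dixon's test at the 95% level, and chance gives about 1 in 20. Of the 10 imprinted genes, Sgce had an array at 9.07 in the unconventional clone with anti-CD3 alone (replicate 1, the nearest other at 9.43). Peg3 had one at 4.87 among the conventional anti-CD3 arrays (replicate 3, nearest 4.44), and Plagl1 one at 3.71 in the unconventional clone with cyclosporine A (replicate 3, nearest 3.97). In the unconventional clone with anti-CD3 alone, Igf1 (9.77) and Copg2 (9.68) stood low on replicate 1, Zim1 (3.51) low on replicate 3 and Trib3 (7.46) high on replicate 4. Trib3 also stood high on replicate 1 of the conventional clone with cyclosporine A (9.24), and Airn low on replicate 1 of the unconventional clone with cyclosporine A (5.32).

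The drug effect of Mest was 3.26 larger in the unconventional than in the conventional clone, a value given without a test because that response led the choice of the genes. For 14 other named genes the test of the difference itself separated the drug effects of the clones (unconventional minus conventional, log2, limma). The difference was positive for Grb10 (0.40), Uhrf1 (2.58), Tet2 (0.57), Irs2 (1.30), Cdkn2b (2.46) and E2f1 (0.40). For Uhrf1, Tet2, Irs2 and E2f1 a positive value is a smaller fall in the unconventional clone. It was negative for Tfpi2 (-1.06), Gatm (-0.81), Igf1 (-1.21), Cdkn2d (-0.71), Trib3 (-1.73), Ddit3 (-1.22), Atf5 (-0.88) and Rb1 (-0.40). The calls of Grb10 and Tet2 were lost under median centring (0.35 and 0.52), and that of Rb1 under quantile normalization (-0.34).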

How the results depend on the processing

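The number of the 10 genes called in the conventional clone with cyclosporine A, 1 as reported, was 2 under quantile normalization and with only genes above background, 3 with trend and robust moderation, 3 with the replicate number as a block, and 0 to 2 with 1 array left out. In the unconventional clone 2 became 4 with trend and robust moderation, with array weights and with the replicate block. For the difference of effects 2 became 1 under median centring and lay between 1 and 2 with 1 array left out. The counts between the clones stayed at 5 with anti-CD3 alone and at 6 to 7 with the drug. The settings that raised a drug count called Impact or Igf2r, whose effects kept their direction. Over 960 values of single genes under alternatives, 927 kept their side of the threshold, 24 passed it and 9 fell short of it; none of the called changes turned round. The drug difference of Mest in the unconventional clone ran from 3.21 to 3.47, and its clone difference with anti-CD3 alone from 2.65 to 2.90. The clone difference with anti-CD3 alone ran from 5.30 to 5.53 for Peg10, from 4.80 to 5.00 for Sgce, from 2.05 to 2.21 for Impact and from -1.55 to -1.40 for Igf2r. Whether replicate numbers pair the arrays was not settled. Of 24 same-numbered pairs, 3 had a correlation of deviations over 0.1 (range -0.14 to 0.28), and 7 of 16 arrays correlated best with their own number. The pairs with and without the drug ran from 0.06 to 0.10 in the unconventional clone and from -0.13 to 0.28 in the conventional clone. Fits on the groups of a comparison alone do not apply to the difference of effects, and Plagl1 and Ndn have no value with only genes above background. Signal over background limits what can be read for Plagl1, Ndn, Peg3 and Grb10, and for the level of Mest and Sgce in the conventional clone.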
